A study of Mus musculus with 13 samples.

Results

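The elements described here are the endogenous retroviral sequences of class ERV1 other than the VL30, MMERGLN, RLTR4 and RLTR6 entries. They were chosen by name alone: every entry with any signal whose name carries the class ERV1, without those starting RLTR4_, RLTR4I_ or MMERGLN, starting RLTR6 with no further digit, or containing VL30. Longer stems such as RLTR41, RLTR48 and RLTR49 are therefore kept. The rule gave 63 elements of the 889 analysed, beside 8 other ERV1-class, 240 ERV2-class and 57 ERV3-class elements. Of the 63 names, 40 give the taxon Mus and 23 another taxon, among them 15 Rattus. There are 16 internal sequences and 47 long terminal repeats (LTRs) or entries of unspecified part. By name stem they fall into LTRIS (9), RLTR30 (8), RLTR1 (7), RLTR41 (4), RLTR48, RMER2 and RLTR14 (3 each), MERV1, MURVY and MuRRS with RLTR5 (2 each), and 20 others. The entries are consensus sequences, so reads from many genomic copies are collected under a single name, and no genomic position belongs to a value.

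ERV1 elements descend from gammaretroviruses, the group that also holds murine leukemia virus. An intact copy has an internal sequence with the viral genes between a pair of LTRs, which carry the promoter and the polyadenylation signal, and recombination between the LTRs leaves a solo LTR behind. Most copies are kept silent by DNA methylation and repressive chromatin, and transcripts from both strands can pair into double-stranded RNA, which cytosolic sensors can detect. TDG is a DNA glycosylase that removes thymine mispaired with guanine and oxidised forms of 5-methylcytosine. Trp53 encodes the tumour suppressor p53.

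The data are directional RNA sequencing libraries from ribosomal RNA-depleted total RNA of cultured mouse tumour cells. In B16, a melanoma line, they comprise the genotypes Tdg Trp53 DKO (double knockout, DKO), Trp53 KO, Tdg KO and WT, with 2 libraries each. KP is labelled as lung adenocarcinoma (LUAD) and has 3 Tdg KO libraries and 2 WT libraries. The labels do not spell out the name KP, and WT there is taken to refer to Tdg. No allele, guide or clone is given, and the labels do not say whether libraries of a group come from separate cultures, so p-values measure only the spread between these libraries. The series title frames the study around the need for Tdg in p53-deficient cancer.

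Values are the authors' mean signal, taken as read coverage per base of the consensus, separately for the sense and the antisense strand. They were not scaled to library size and the number of reads per library is unknown. Orders of libraries and folds are therefore those of the deposited signal unless a scaling is named. A single fragment adds about 299 covered bases, by which the 63 elements held about 1417 and 1181 fragments in DKO, 558 and 482 in Trp53 KO, 940 and 719 in Tdg KO and 636 and 1015 in WT. In KP they held about 677, 323 and 387 fragments in Tdg KO and 216 and 159 in WT. DKO library 1 and KP Tdg KO library 1 stand apart by their 7SL RNA signal (1198218 and 3316360, against at most 592693 in the other B16 libraries and 344067 in the other KP libraries). The count of strands that rose in DKO against Trp53 KO and the result on RNLTR12-int are given with and without them. Most features were higher in DKO: of all 1246 (1 strand of 1 element each, mean signal of at least 0.1) 1125 lay above 0 and 115 below it against Trp53 KO, with a median log2 change of 1.67. The summed repeat fragments without 7SL did not follow, at about 405827 and 353487 in DKO and 469929 and 320365 in Trp53 KO, which overlap.

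Signal was concentrated in a few mouse LTRs. In B16, RLTR1 entries held 44.9% to 52.0% of the summed signal of the 63 elements in each library, and LTRIS entries 25.5% to 34.8%. In KP the order was the other way round, with 33.2% to 77.6% in LTRIS entries and 16.04% to 23.9% in RLTR1 entries. Any signal was found for 61 of the 63 elements in B16 and for 42 in KP. RLTR1B_MM, RLTR1C_MM, LTRIS2, LTRIS_Mus, RLTR48A and MuRRS4-int had signal in all 26 columns, while 8 elements had it in 1 column only. All 40 elements named for Mus were past the filter in B16, against 9 of the 23 named for other taxa. Of the 16 internal sequences 4 were past it, against 45 of the 47 LTRs and entries of unspecified part.

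**Figure D1:**
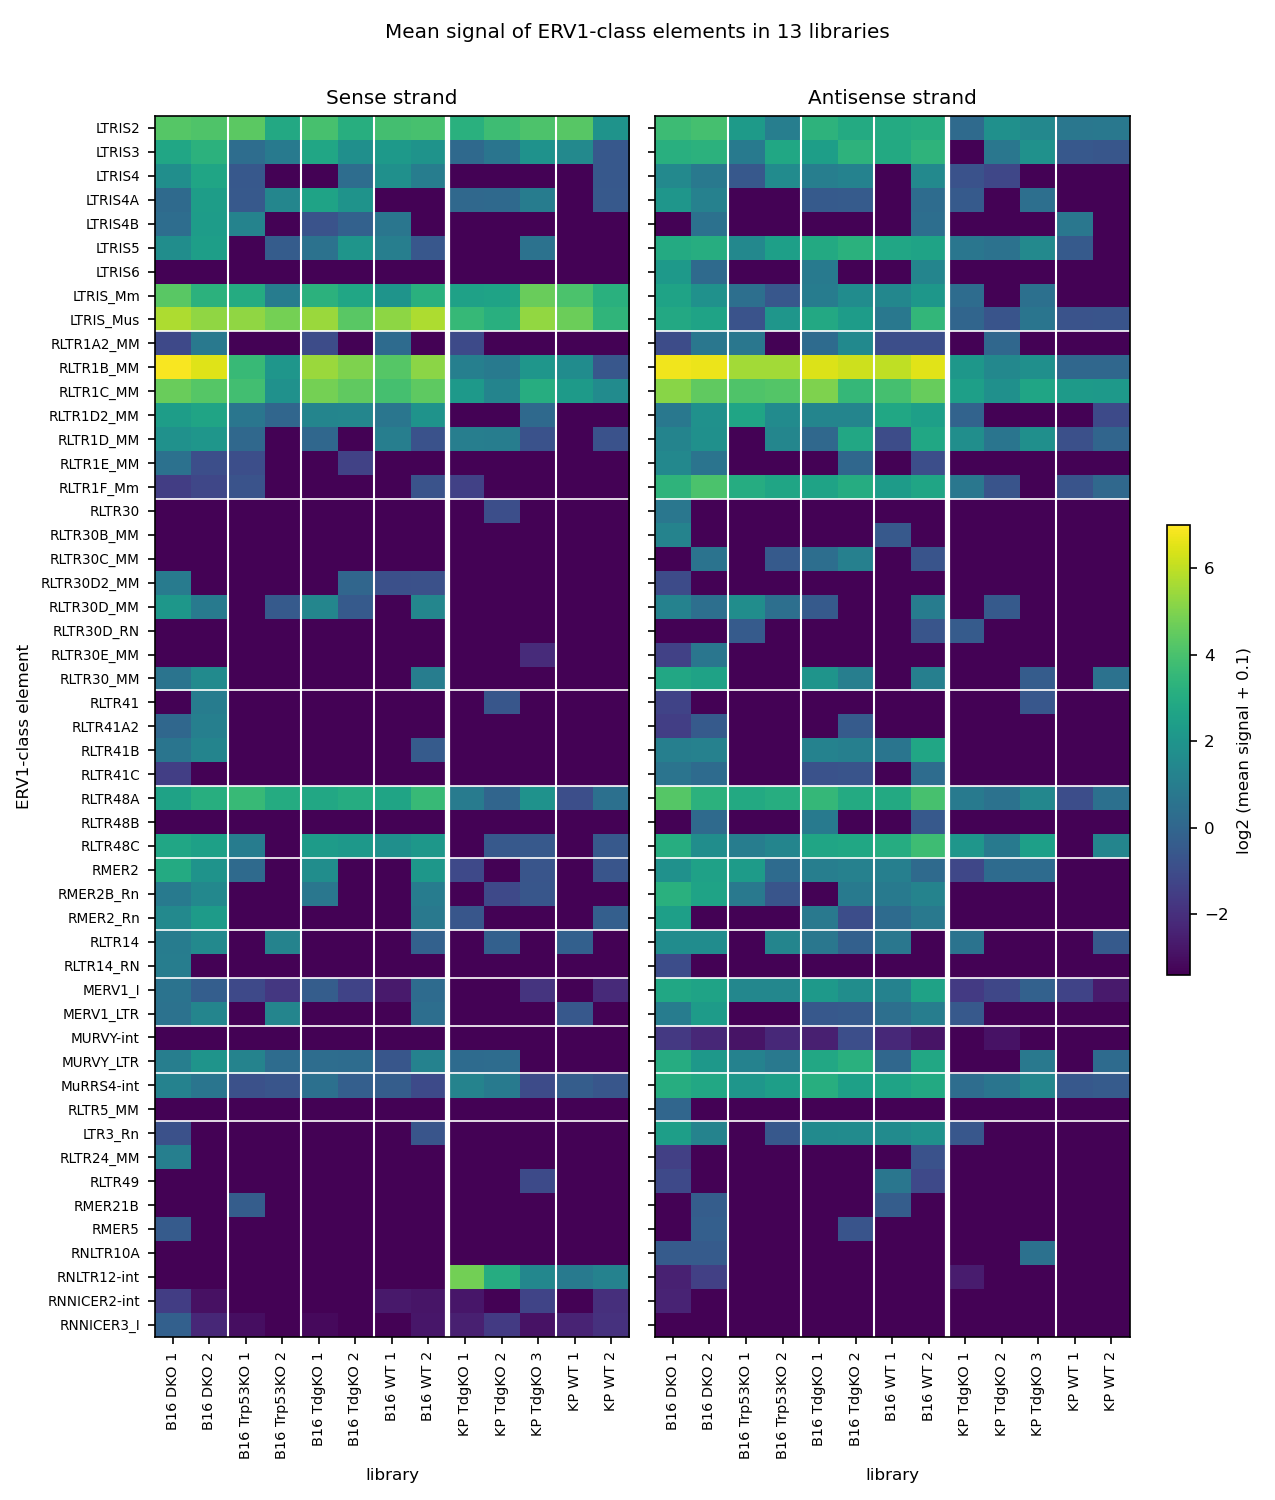
Mean signal, as log2 of signal plus 0.1, of each ERV1-class element past the filter in either table (rows, grouped by name stem) in the 13 libraries (columns), with the sense strand on the left and the antisense strand on the right. RLTR1B_MM is the brightest row in B16, LTRIS_Mus and LTRIS2 are bright in both lines on the sense strand, and RNLTR12-int has sense signal in KP and none in B16.

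The clearest single difference was on the sense strand of RLTR1B_MM, an LTR of mouse and the best covered element of the set in B16. Its sense signal was 120.5 and 89.1 in DKO, against 12.0 and 4.13 in Trp53 KO. It was 43.1 and 32.0 in Tdg KO, and 19.1 and 36.5 in WT. The DKO libraries were thus the highest and the Trp53 KO libraries the lowest of the 8, without overlap with the other genotypes. The values stand for about 207 and 153 fragments in DKO, 20.6 and 7.08 in Trp53 KO, 73.9 and 54.9 in Tdg KO, and 32.8 and 62.6 in WT.

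Against Trp53 KO, RLTR1B_MM sense rose by 3.86 (log2, SE 0.57, limma adjusted p = 0.0154), a ratio of means of 12.99. After median-ratio scaling (each library divided by the median, over well covered features, of its signal relative to their mean), which lowers the median of all features to 0.60, the rise was 2.41 (limma adjusted p = 0.0300). The divisors were 1.76 and 1.37 in DKO, 0.61 and 0.52 in Trp53 KO, 0.86 and 0.65 in Tdg KO, and 0.69 and 0.93 in WT. Centring each library on its median log2 value lowers every change of this comparison by 2.05; it left 1.81 (limma adjusted p = 0.0542), which misses the threshold of 0.05. Without DKO library 1 the change was 3.64 (limma adjusted p = 0.0597) and without Trp53 KO library 2 it was 3.10 (limma adjusted p = 0.0672), while the other 6 omissions kept the call. With only the 2 compared groups in the fit the limma adjusted p was 0.0601.

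The antisense strand of RLTR1B_MM differed less. Its signal was 110.5 and 103 in DKO, against 46.7 and 47.4 in Trp53 KO. It was 86.2 and 74.4 in Tdg KO and 64.6 and 92.7 in WT, so here too DKO was highest and Trp53 KO lowest. The rise against Trp53 KO was 1.18 (SE 0.26, limma adjusted p = 0.0216), below the median of all features, and it turned to -0.27 after median-ratio scaling and to -0.87 after median centring.

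Ratios within a library do not depend on its depth, and they set RLTR1B_MM sense apart in the same way. The ratio of RLTR1B_MM to RLTR1C_MM on the sense strand was 4.91 and 4.68 in DKO, 0.849 and 1.16 in Trp53 KO, 1.53 and 1.45 in Tdg KO, and 1.25 and 1.69 in WT. No library of another genotype came near the DKO values. On the antisense strand the same ratio was 3.08 and 4.77 in DKO, 2.65 and 2.57 in Trp53 KO, 2.74 and 6.45 in Tdg KO, and 4.20 and 3.89 in WT, so there DKO lay among the other genotypes. The ratio of RLTR1B_MM sense to LTRIS_Mus sense was 2.29 and 2.28 in DKO, 0.310 and 0.147 in Trp53 KO, 0.998 and 1.61 in Tdg KO, and 0.514 and 0.684 in WT. These ratios were formed after the values were seen and are given without a test.

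RLTR1B_MM sense over antisense was 1.09 and 0.862 in DKO, 0.257 and 0.0871 in Trp53 KO, 0.4996 and 0.430 in Tdg KO, and 0.297 and 0.394 in WT. Sense signal thus reached or neared antisense signal in DKO, and was at most 0.4996 of it in the other genotypes. The shift in this log2 ratio between DKO and Trp53 KO was 2.67 (SE 0.64) and did not pass over all elements (limma adjusted p = 0.117). For RLTR1C_MM the ratio was 0.684 and 0.879 in DKO and 0.802 and 0.193 in Trp53 KO, with overlap.

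**Figure D2:**
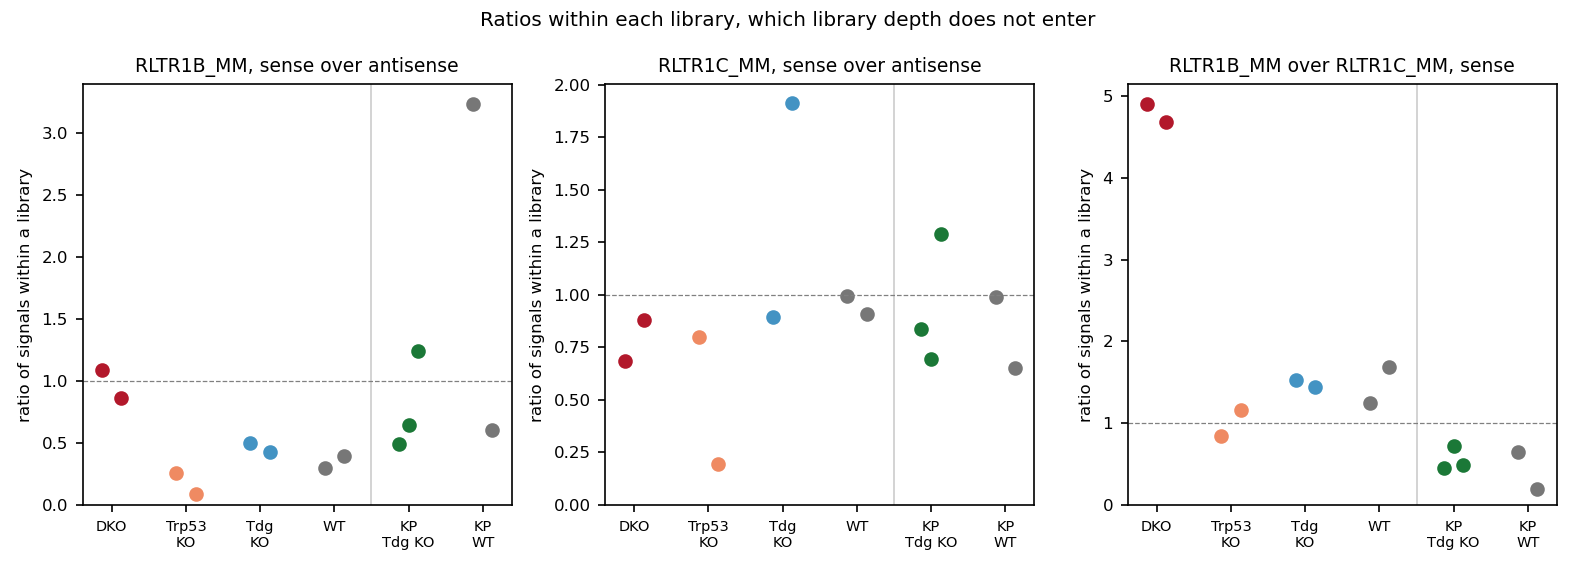
Ratios of mean signals within each library (points) for RLTR1B_MM sense over antisense, RLTR1C_MM sense over antisense, and RLTR1B_MM over RLTR1C_MM on the sense strand, by group; the dashed line marks 1 and the vertical line separates B16 from KP. The DKO points of the third panel, 4.91 and 4.68, lie above the points of every other group.

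RLTR1C_MM did not share this pattern on either strand. RLTR1C_MM sense was 24.6 and 19.0 in DKO, 14.1 and 3.55 in Trp53 KO, 28.1 and 22.1 in Tdg KO, and 15.3 and 21.6 in WT. Its DKO libraries lie above those of Trp53 KO and inside the range of the other genotypes, and the change against Trp53 KO was 1.59 (SE 0.63, limma adjusted p = 0.0889). RLTR1C_MM antisense was 35.9 and 21.7 in DKO and 17.6 and 18.4 in Trp53 KO, a log2 difference of 0.63 that did not pass (limma adjusted p = 0.344). RLTR1F_Mm was read almost entirely antisense, at 10.3 and 16.6 in DKO, 8.09 and 6.47 in Trp53 KO, 6.07 and 8.04 in Tdg KO, and 4.86 and 6.40 in WT. As deposited, DKO lay above all other B16 libraries there, but Trp53 KO was not the lowest group. The RLTR1F_Mm antisense difference between DKO and Trp53 KO (ratio of means 1.85) did not pass. Both DKO libraries lay above both Trp53 KO libraries in 68.9% of all features.

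Among the LTRIS entries, LTRIS_Mus was the best covered. Its sense signal was 52.6 and 39.0 in DKO, 38.8 and 27.99 in Trp53 KO, 43.1 and 19.9 in Tdg KO, and 37.2 and 53.3 in WT. The genotypes overlap except for DKO and Trp53 KO, where 39.0 and 38.8 nearly meet, and the log2 difference was 0.46 (limma adjusted p = 0.397), or -0.998 after median-ratio scaling. After median centring the difference was -1.59 and passed as a fall (limma adjusted p = 0.0284), where 110 of all 1246 features fell. LTRIS2 showed a difference on the antisense strand: 13.1 and 15.2 in DKO, against 4.78 and 1.96 in Trp53 KO (log2 change 2.17, SE 0.46, limma adjusted p = 0.0212). On that strand LTRIS2 was 9.84 and 7.78 in Tdg KO and 7.77 and 8.43 in WT. As deposited, DKO was thus highest and Trp53 KO lowest there, without overlap. The LTRIS2 antisense call was kept neither after median-ratio scaling nor after median centring. LTRIS2 sense was 18.8 and 17.3 in DKO and 21.0 and 7.34 in Trp53 KO, which overlap. Of 17 LTRIS features 5 rose in DKO against Trp53 KO and none fell, with a median log2 change of 2.09 as deposited and 0.74 after median-ratio scaling. Over all features 29.5% rose, a share like that of the LTRIS features, with medians of 1.67 and 0.60. The 5 are LTRIS3 and LTRIS5 sense and LTRIS2, LTRIS4A and LTRIS_Mm antisense.

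**Figure D3:**
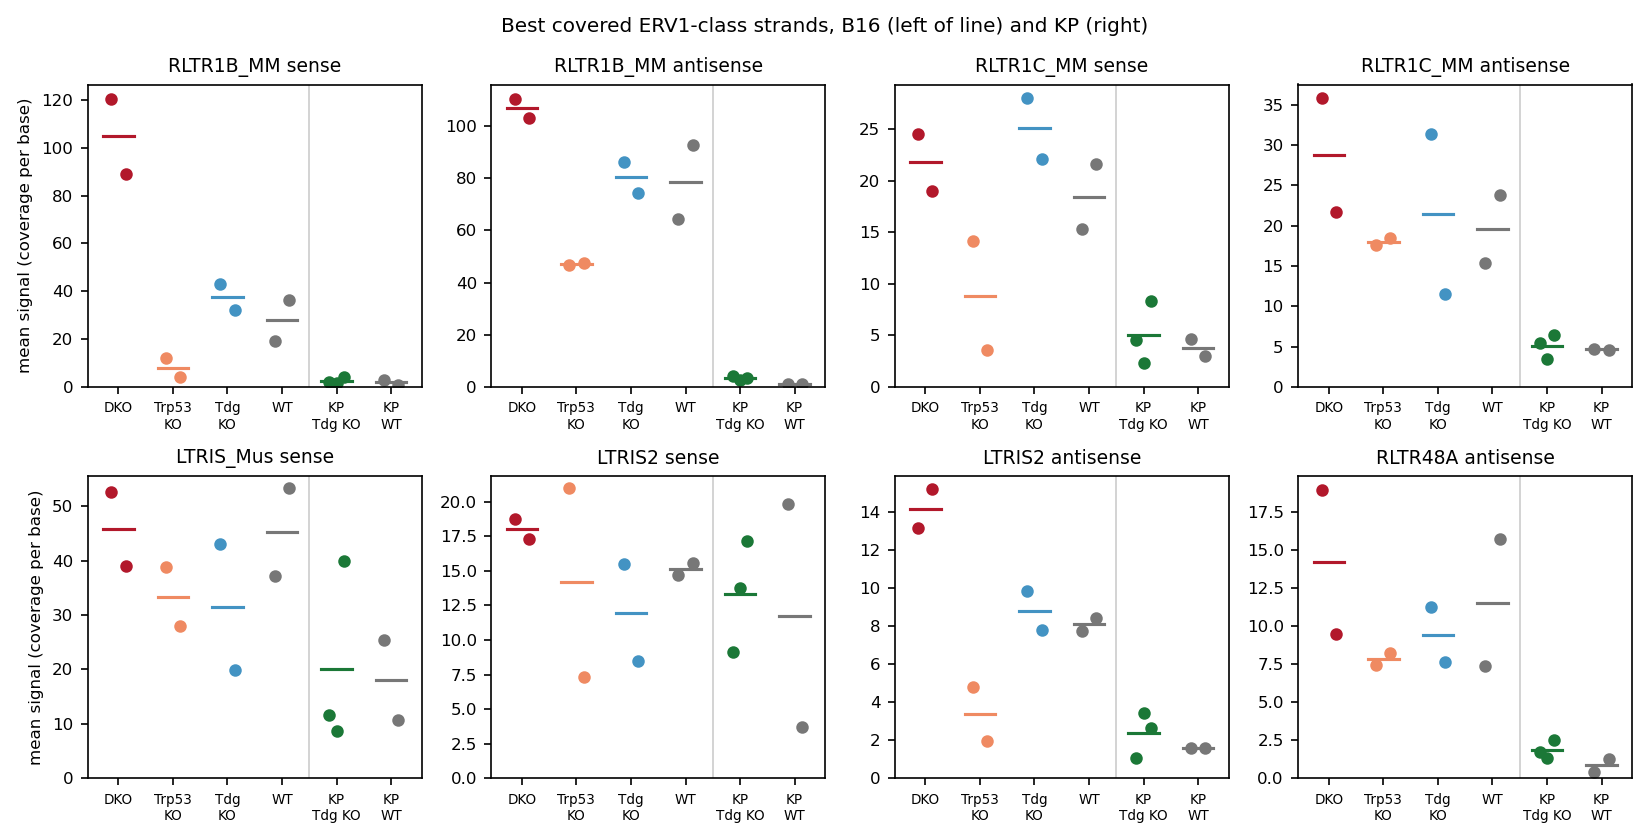
Mean signal (coverage per base, linear axis from 0) of the 8 best covered strands by group; points are libraries, bars are group means, and the vertical line separates B16 from KP. RLTR1B_MM sense is at 120.5 and 89.1 in DKO and at most 43.1 elsewhere, whereas LTRIS_Mus sense spans 19.9 to 53.3 over the B16 libraries, with DKO inside the range of Tdg KO and WT and just above Trp53 KO.

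Over the whole set, 19 of the 79 member features past the filter rose in DKO against Trp53 KO and none fell in limma's test (24.1%). Over all 1246 features 29.5% rose and 1.52% fell, so the share of members is near the background. The rises comprised 7 sense and 12 antisense features. The members' median log2 change was 2.09, against 1.67 for all features; after median-ratio scaling these were 1.31 and 0.60, and after median centring 0.04 and -0.38. A feature seen in DKO alone passes the filter through DKO, so neither the count nor the median of these features supports more than their values. In 47 of the 79 (59.5%) both DKO libraries lay above both Trp53 KO libraries, against 68.9% of all features, and in none did both lie below (4.57% of all features). Without DKO library 1 there were 4 rises among 71 member features, against 133 of 1160 over all features, and without DKO library 2 there were 12 among 75, against 358 of 1223. Without Trp53 KO library 1 there were 2 rises, against 8 of 1259, and without Trp53 KO library 2 there were 0, against 14 of 1260. With only the 2 compared groups in the fit there were also 0, for members and for all features alike.

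The called features differ widely in depth. RLTR1B_MM sense had about 359 fragments over both DKO libraries. In contrast, 11 of the 19 were at 0 in both Trp53 KO libraries, so that no ratio to Trp53 KO can be formed for them. RLTR30_MM antisense was 7.10 and 5.85 in DKO, 0 in both Trp53 KO libraries, 3.87 and 1.97 in Tdg KO, and 0 and 2.01 in WT. As deposited, this puts it at least 3.18-fold higher in DKO than in Trp53 KO, against a floor of 3 fragments per library. By the same floor RMER2_Rn sense was at least 2.31-fold, MERV1_LTR antisense at least 1.89-fold and LTRIS4A antisense at least 1.65-fold higher. These bounds hold only for the deposited signal, where the median log2 change of all features was 1.67. No bound was formed after scaling between libraries. In the other 7 the DKO signal itself lay under the floor, and no fold is given.

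The RLTR41 entries belong to that thin layer. RLTR41A2 sense was 0.939 and 2.03 in DKO and 0 in every other library of both lines. RLTR41B sense was 1.48 and 2.36 in DKO and 0 in Trp53 KO and Tdg KO, with 0 and 0.646 in WT. RLTR41B antisense was 2.05 and 2.15 in DKO and 0 in both Trp53 KO libraries, but 2.18 and 2.04 in Tdg KO and 1.46 and 6.68 in WT. The RLTR41B antisense difference is therefore absent signal in Trp53 KO, with DKO inside the range of Tdg KO and WT. Of 6 RLTR41 features 4 rose, with RLTR41C antisense as the fourth, each on about 4.60 to 5.68 fragments summed over the DKO libraries. Over all features 29.5% rose. RLTR41A2 sense passed the filter through DKO alone, so this count supports no more than the values.

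Sense signal of LTRIS3 was 6.64 and 9.74 in DKO, against 1.14 and 1.73 in Trp53 KO, a ratio of means of 5.71 (log2 change 2.44, limma adjusted p = 0.0198). RLTR1D2_MM sense was 5.09 and 6.31 in DKO, against 1.49 and 0.930 in Trp53 KO, a ratio of 4.72 (log2 change 2.17, limma adjusted p = 0.0320). Both kept their direction after median-ratio scaling, at 1.03 and 0.78, and neither passed there. LTR3_Rn antisense, an LTR named for rat, was 5.23 and 2.29 in DKO, 0 and 0.597 in Trp53 KO, 2.89 and 2.94 in Tdg KO, and 2.97 and 3.56 in WT. Here too Trp53 KO was the low group, and the DKO values enclose those of Tdg KO and WT.

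After median-ratio scaling 5 of the 79 member features rose, against 77 of 1246 over all features, a like share. They are all among the 19: RLTR1B_MM sense, MERV1_LTR antisense, RLTR41A2 sense, RLTR41B antisense and RNLTR10A antisense. Except for RLTR1B_MM, each had about 11 fragments or fewer over both DKO libraries. RLTR48A sense fell under this scaling (-1.87, SE 0.44, limma adjusted p = 0.0487). As deposited it was 5.95 and 8.66 in DKO and 12.0 and 7.87 in Trp53 KO, a log2 difference of -0.43 (limma adjusted p = 0.425). RLTR48A antisense was 19.0 and 9.51 in DKO and 7.46 and 8.25 in Trp53 KO (log2 difference 0.77, limma adjusted p = 0.246, or -0.68 after the scaling), and none of the 5 RLTR48 features rose.

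**Figure D4:**
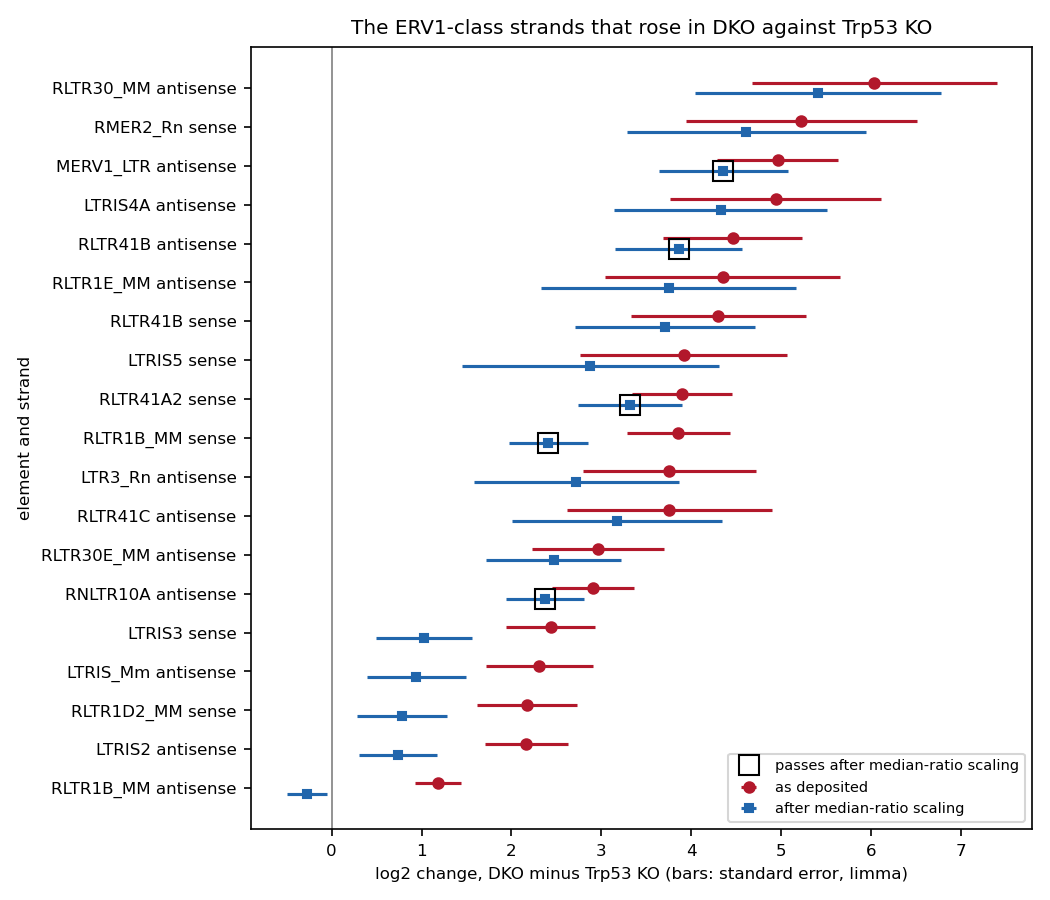
log2 change, DKO minus Trp53 KO, with standard errors from limma, of the 19 features that rose (rows), as deposited (circles) and after median-ratio scaling (squares; a black frame marks the 5 that still pass). The well covered RLTR1B_MM antisense moves to -0.27 after scaling, while RLTR1B_MM sense stays at 2.41.

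Internal sequences and their LTRs could be compared for MERV1 and for MURVY, the murine repeated virus on the Y chromosome. MERV1_I antisense was 6.78 and 6.02 in DKO, 2.57 and 2.60 in Trp53 KO, 4.45 and 3.17 in Tdg KO, and 2.19 and 5.91 in WT. Its log2 difference between DKO and Trp53 KO was 1.27 (SE 0.54, limma adjusted p = 0.102), or -0.15 after median-ratio scaling. MERV1_LTR antisense was 1.85 and 4.88 in DKO and 0 in both Trp53 KO libraries, with 0.590 and 0.626 in Tdg KO and 1.21 and 1.91 in WT; it rose against Trp53 KO (log2 4.96, SE 0.67, limma adjusted p = 0.0154). MERV1_LTR sense overlapped between these groups, at 1.35 and 2.39 in DKO and 0 and 2.40 in Trp53 KO.

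MURVY-int had no sense signal in any library, and its antisense signal did not exceed 0.435 in B16. MURVY_LTR antisense was 8.06 and 4.36 in DKO, 2.21 and 1.67 in Trp53 KO, 7.12 and 9.10 in Tdg KO, and 0.946 and 6.96 in WT. The difference between DKO and Trp53 KO, 1.58 on the log2 scale, did not pass (limma adjusted p = 0.192). MuRRS4-int, an internal sequence of the murine retrovirus-related sequences, was likewise mostly antisense in B16: 8.46 and 6.96 in DKO, 4.10 and 5.32 in Trp53 KO, 8.51 and 5.597 in Tdg KO, and 6.03 and 7.39 in WT (log2 difference between DKO and Trp53 KO 0.70, limma adjusted p = 0.168).

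Signal shared by both strands was measured as the lower of the sense and antisense values of an element. By this measure 7 of 49 members rose in DKO against Trp53 KO (14.3%) and none fell in limma's test, against 20.8% and 0.0% of all 730 elements. They are RLTR1B_MM, LTRIS2, LTRIS3, LTRIS4A, LTRIS_Mm, RLTR41A2 and RLTR41B. For RLTR41A2 the lower strand in DKO was antisense, with only about 0.408 and 0.993 fragments. Tdg KO library 2 held about 1.02 antisense fragments of it. Every lower-strand call of RLTR41A2 rests on these few fragments. None of the 7 calls was kept with the replicate block or with the compared groups only, where 19 and 2 of all 730 elements rose. Most of the 7 were also lost without DKO library 1 or without Trp53 KO library 2, which leaves 1 library in a group. RLTR1B_MM changed by 3.79 (SE 0.61, limma adjusted p = 0.0246), which follows its sense strand, the lower strand in 7 of the 8 libraries. After median-ratio scaling LTRIS4A alone passed (3.42, limma adjusted p = 0.0457), and RLTR1B_MM was at 2.35 (limma adjusted p = 0.0674). Against Tdg KO the lower strand of 1 member, RLTR41A2, rose in DKO (limma adjusted p = 0.0389), where 3.97% of all elements rose and 0.137% fell (4.11% in either direction). Against WT it rose for RLTR41A2 (limma adjusted p = 0.0375) and LTRIS4A (limma adjusted p = 0.0372), where 3.7% of all elements rose. After median-ratio scaling none of these 3 passed (limma adjusted p = 0.109 for RLTR41A2 against Tdg KO, and 0.120 for RLTR41A2 and 0.0612 for LTRIS4A against WT), and no library was left out for them. In the balance of the strands 1 member moved towards antisense (1.23% of all elements) and none towards sense (0.137%, or 1.37% in either direction). The member is RNLTR10A, with about 1 antisense fragment in each DKO library and none in Trp53 KO.

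Which strand was read differed between elements and was stable across genotypes for several of them. The antisense mean was above the sense mean in 36 of 49 elements in B16 and in 22 of 33 in KP. In all 8 B16 libraries antisense was higher for RLTR1F_Mm, LTRIS5, MERV1_I, MuRRS4-int and MURVY-int, with antisense shares of their summed means of 97.7%, 76.0%, 87.6%, 87.1% and 100%. Sense was higher in all 8 for LTRIS_Mus, LTRIS2 and LTRIS_Mm, whose antisense shares were 12.2%, 36.7% and 25.0%. The same 3 were read mainly from the sense strand in all 5 KP libraries, with antisense shares of 3.89%, 13.9% and 3.64%. LTRIS5 and LTRIS_Mus, members of the same name stem, thus lay on opposite sides. Of the antisense-biased elements of B16, RLTR1F_Mm, LTRIS5 and MERV1_I stayed mostly antisense in KP, with antisense shares of 92.6%, 82.3% and 85.0%. For each of them antisense was higher in 4 of the 5 KP libraries. MuRRS4-int did not keep the bias. It was higher on the sense strand in KP Tdg KO libraries 1 and 2 (sense 2.29 and 1.73, antisense 1.16 and 1.45). The same held in KP WT library 1 (sense 0.701, antisense 0.593).

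**Figure D5:**
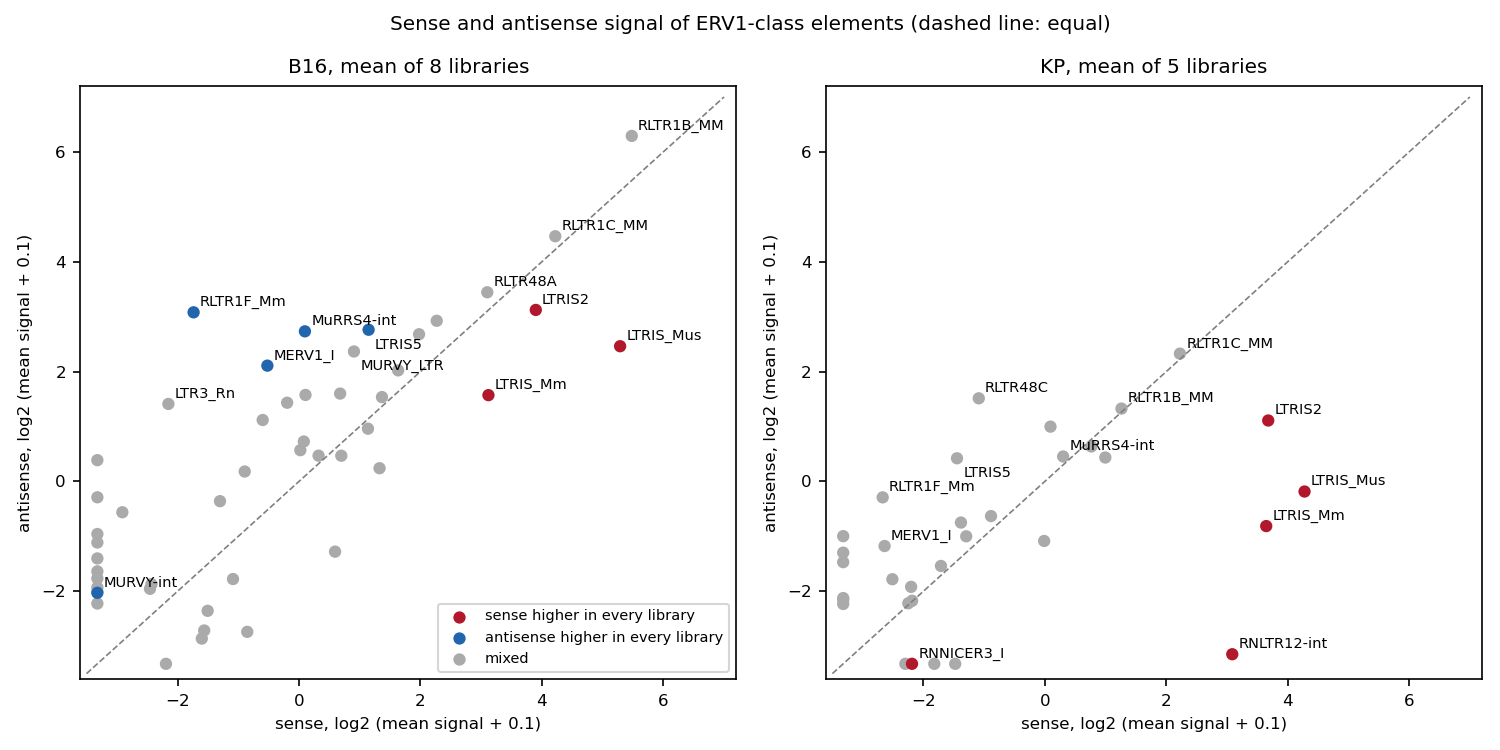
Antisense against sense signal of each element past the filter, as log2 of the mean over the libraries of a table plus 0.1, for B16 (left, 8 libraries) and KP (right, 5 libraries). Red points were higher on the sense strand and blue points higher on the antisense strand in every library; LTRIS_Mus, LTRIS2 and LTRIS_Mm are red in both panels.

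Against Tdg KO, 2 of the 79 member features rose in DKO and none fell in limma's test, where 3.05% of all features rose and 0.0803% fell (3.13% in either direction). They are RLTR41A2 sense and RNLTR10A antisense, at about 4.69 and 1.99 fragments over both DKO libraries and at 0 in all other B16 libraries. The same features were the 2 that rose against WT, where 4.09% of all features rose and 0.0803% fell. In both comparisons neither call was kept with either scaling, the compared groups only or the replicate block, and neither feature passed a filter of 1. Neither call was kept without any 1 of the WT, Trp53 KO or Tdg KO libraries, though such a fit leaves 1 library in a group. Without either DKO library RNLTR10A antisense failed the filter. RLTR1B_MM sense was 1.48 higher in DKO than in Tdg KO (limma adjusted p = 0.131) and 1.97 higher than in WT (limma adjusted p = 0.0748) on the log2 scale, without passing in either. Both DKO libraries lay above both Tdg KO libraries in 38 of the 79 member features (48.1%), against 62.1% of all features. They lay above both WT libraries in 31 of the 79 (39.2%), against 54.7% of all features. These comparisons share the DKO libraries with the one against Trp53 KO.

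Neither single knockout gave a call. For Tdg KO against WT limma called 0 of 79 (0.0% of all features in either direction); at an unadjusted p under 0.05, 1 was higher and 1 lower, against 15 higher and 27 lower of all 1246. The lowest p belonged to LTRIS4A sense, at 6.15 and 3.76 in Tdg KO and 0 in both WT libraries, with 1.05 and 5.18 in DKO and 0.605 and 2.51 in Trp53 KO (limma adjusted p = 0.235). The WT libraries were the only ones of the 8 at 0. RLTR49 antisense was 0 in both Tdg KO libraries and 1.51 and 0.359 in WT (limma adjusted p = 0.967).

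For Trp53 KO against WT limma called 0 of 79 (0.0% of all features in either direction), with 1 higher and 11 lower at an unadjusted p under 0.05, against 16 higher and 65 lower of all 1246. The lowest p belonged to RLTR41B antisense (limma adjusted p = 0.255), MERV1_LTR antisense (limma adjusted p = 0.255) and RLTR48C antisense. RLTR48C antisense was 1.89 and 2.39 in Trp53 KO, against 8.07 and 13.4 in WT (log2 difference -2.24, limma adjusted p = 0.377). RLTR1B_MM sense differed by -1.89 (limma adjusted p = 0.445), with both Trp53 KO libraries below both WT libraries. Such an order held for 20 of the 79 (25.3%), against 35.2% of all features, and the opposite order for 2, against 3.61%.

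The interaction term asks whether the difference between Tdg KO and WT cells changes when Trp53 is absent. No member passed in limma (0.0% of all features), with 20 positive and 1 negative at an unadjusted p under 0.05 among the 79, against 427 positive and 10 negative of all 1246. RLTR1B_MM sense had an interaction of 3.37 on the log2 scale (limma adjusted p = 0.0757) and RLTR1B_MM antisense one of 1.13 (limma adjusted p = 0.0891), or -0.43 after median-ratio scaling. The members with the lowest p were MERV1_LTR antisense (6.16, limma adjusted p = 0.0690), RLTR41A2 sense (3.89, limma adjusted p = 0.0757) and RLTR41B antisense (5.01, limma adjusted p = 0.0757).

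In KP cells no member passed between Tdg KO and WT in limma (0 of 52, and 0.0% of all 984 features), with 4 higher and 0 lower at an unadjusted p under 0.05, against 44 higher and 4 lower of all 984. All 3 Tdg KO libraries lay above both WT libraries in 8 member features (15.4%), against 19.2% of all features, and in none did all lie below (0.915%). The members' median log2 difference was 0.91, against 0.75 for all features, or 0.52 and 0.15 after median-ratio scaling. RLTR1B_MM antisense signal was 0.940 to 4.17 in KP and 46.7 to 110.5 in B16, and its sense signal 0.577 to 4.11 in KP and 4.13 to 120.5 in B16. KP libraries held fewer repeat fragments without 7SL (about 49019 to 133044, against 259523 to 469929 in B16). As a share of repeat bases RLTR1B_MM sense overlapped between the lines, at 0.00167% to 0.0106% in KP and 0.00221% to 0.0509% in B16. The antisense ratio of RLTR1B_MM to RLTR1C_MM did not overlap, at 0.199 to 0.779 in KP and 2.57 to 6.45 in B16. Both strands of RLTR1B_MM held 2.87% to 6.04% of the members' summed signal in KP and 24.4% to 36.6% in B16. Within KP, antisense signal was 4.17, 2.65 and 3.31 in Tdg KO and 0.940 and 0.959 in WT, without overlap (log2 difference 1.71, SE 0.60, limma adjusted p = 0.777). Its sense signal was 2.05, 1.71 and 4.11 in Tdg KO and 3.04 and 0.577 in WT, with overlap. These rest on about 0.990 to 7.16 fragments per library and strand.

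The lowest p in KP belonged to RMER2 antisense, at 0.342, 1.07 and 1.07 in Tdg KO and 0 in both WT libraries (limma adjusted p = 0.777), on at most about 2.02 fragments per library. LTRIS5 antisense was 1.53, 1.35 and 2.68 in Tdg KO and 0.640 and 0 in WT (limma adjusted p = 0.777). LTRIS_Mus sense, the best covered strand in KP, was 11.6, 8.76 and 40.0 in Tdg KO and 25.4 and 10.6 in WT. LTRIS2 sense was 9.15, 13.7 and 17.1 in Tdg KO and 19.8 and 3.69 in WT, so the libraries of both groups intermix for both LTRs. On the antisense strand LTRIS2 was 1.05, 3.41 and 2.63 in Tdg KO and 1.57 and 1.62 in WT.

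RNLTR12-int, an internal sequence named for rat, had sense signal in every KP library and none in any B16 library. Its sense signal was 27.2, 8.20 and 2.58 in KP Tdg KO and 1.77 and 2.23 in KP WT, or about 480.5, 145 and 45.7 fragments in Tdg KO and 31.3 and 39.4 in WT. As deposited, all 3 Tdg KO libraries lie above both WT libraries, and library 1 lies far above the rest. The log2 difference was 2.02 (SE 1.01, limma adjusted p = 0.777), and 1.18 without Tdg KO library 1. RNLTR12-int held 26.4%, 10.97% and 1.67% of the summed signal of the 63 elements in Tdg KO, and 1.98% and 4.16% in WT. By this share Tdg KO library 3 lay below both WT libraries. The 7SL sense signal was 3316360, 184730 and 306523 in the same Tdg KO libraries and 344067 and 231963 in the WT libraries, and its part in the result was not tested. Antisense signal of RNLTR12-int was 0.0643 in KP Tdg KO library 1 and 0 in the other 4 KP libraries; in B16 it was 0.0814 and 0.266 in DKO and 0 elsewhere.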

How the data were processed

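The authors made the deposited mean signal with piPipes, per the file names, in 1 table for 8 B16 libraries and 1 for 5 KP libraries, each strand in its own column; the signal is read here as coverage per base. Per the submitters' processing notes, HISAT2 and the build mm10 were used; their step is not stated. How the authors aligned or shared out multi-mapping reads is not given in the labels, and related elements can hold the same reads. In the authors' antisense columns the deposited values (unit: other) carry a minus sign, which was dropped. Of 2035 elements 895 had signal, and 6 exact duplicates were removed, which left 889 (536 repeats and 353 piRNA loci). For all 35 members with 6 or more nonzero values, 1 step divides every value, which shows that coverage had not been scaled by library; depth and its precision are known only through this step. A fragment is taken as 299 covered bases, the median of 69 low values between 250 and 350 bases. Where an element has few values its step is a minimum, so its fragment numbers and floors may be too low.

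Features with a mean of at least 0.1 over their table were fitted as log2(signal + 0.1) with limma 3.58.1 (trended eBayes) in R 4.3.3, all groups together (residual degrees of freedom 4 and 3), with two-sided Benjamini-Hochberg adjustment at 0.05 over all features. Such log2 changes understate the change of low features. The fit, the strand ratio and the lower strand were tested on simulated data. An exact permutation test of 2 against 2 libraries cannot go below 0.333 (0.1 for 2 against 3) and was not used. The elements named are, for each comparison, up to 10 rises and 10 falls among the called features, or the 3 with the smallest p where none was called, then the 8 best covered features and the internal and LTR pairs; others were named after their values were seen. The members, lists and tests were chosen with earlier results of these data known. Alternatives were other pseudocounts, filters and scalings, a fit of the compared groups only, a replicate block and leaving out each library. Replicate numbers were not taken as pairs.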

Additional observations from a re-analysis of the deposited data

How the results depend on the processing

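In B16 the scaling and the choice of libraries decide most calls, and depth per library is unknown. Of the results on counts of calls, 243 alternative values stayed within 1.5 times and 67 moved; of single features, 572 kept direction and side of the threshold, 122 lost and 9 gained a call, and 38 turned sign. The cause was not tested unless stated. Counts of members that rose in DKO against Trp53 KO (19) became 5 with median-ratio scaling, and 0 with centring on the median or with only the compared groups, and counts that fell (0) became 1 and 3 under these scalings. Leaving out 1 library gave 0 to 20 rises. Against Tdg KO (2 rises) there were 5 with a pseudocount of 1 (156 of all 1246 features) and 0 with a filter of 1, either scaling, the compared groups only or the replicate block. Beside these 0 counts, 14 of all 815 features rose with the filter, 9 and 2 of 1246 with the scalings, and 0 with the rest. Against WT (2) there were 4 with a pseudocount of 0.01 and 0 under the same other settings, and 0 to 6 without 1 library. For Trp53 KO against WT (0 falls) there were 2 with a pseudocount of 0.01 (3 of all 1246 features) and 1 with the compared groups only (6 of all 1246). Some omissions of 1 library also gave a fall. The interaction (0) gave 1 rise with a pseudocount of 0.01, and without 1 library 0 to 10 rises and 0 to 1 falls; the 10 and the 4 arose without a DKO library, where the lone DKO library is assumed to vary like the other groups and RLTR41A2 sense is at 0 in every library but 1. Shifts of strand balance towards antisense (1) were 0 with a pseudocount of 1, a filter of 1, the compared groups only or the replicate block. Over all elements 1 of 730, 1 of 476, 0 and 0 moved so. With a pseudocount of 0.01 there were 2 (17 of all 730). Without a DKO library shifts in both directions appeared, on a lone DKO library. Rises of the lower strand (7) were 1 after median-ratio scaling, 0 after median centring, with the compared groups only or with the replicate block, and 1 to 9 without 1 library; after median centring 25 of 49 fell in this comparison (404 of all 730) and 18 of 33 in KP (183 of all 581).

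The replicate block gave 15 of the 19 rises in DKO against Trp53 KO, with RLTR1B_MM sense at the same change (limma adjusted p = 0.0306); same-numbered libraries did not deviate together (correlations of -0.0132 to 0.177 over 1246 B16 features and 0.0341 over 984 KP features), so they share only a number.

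Signs turned as follows on the log2 scale in DKO against Trp53 KO, giving the median-ratio value and then the median-centred one: RLTR1B_MM antisense -0.27 and -0.87, LTRIS_Mus sense -0.998 and -1.59, RLTR1C_MM antisense -0.83 and -1.42, LTRIS2 sense -0.92 and -1.52, RLTR48A antisense -0.68 and -1.28, and RLTR1C_MM sense -0.46 after centring only. RLTR1B_MM antisense turned likewise against Tdg KO (-0.64 and -1.08), against WT (-0.49 and -0.91) and in the interaction (-0.43 and -1.05), and RLTR1B_MM sense against Tdg KO after centring (-0.0228). In KP the values were LTRIS2 sense -0.11 and -0.11, RLTR1C_MM antisense -0.60 and -0.60 and RLTR1C_MM sense -0.42 and -0.43, and with the replicate block RLTR1C_MM antisense -0.10 and sense -0.17. Leaving out 1 library gave -0.22 to 1.28 for LTRIS2 sense in DKO against Trp53 KO, and -0.21 to 0.31 for RLTR1B_MM antisense in Tdg KO against WT. In KP it gave -0.70 to 0.58 for LTRIS_Mus sense, -1.03 to 0.0855 for LTRIS_Mm sense, -0.61 to 1.78 for LTRIS2 sense, -0.10 to 0.35 for RLTR1C_MM antisense and -0.17 to 0.71 for RLTR1C_MM sense.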

Other observations

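Several elements named for other taxa had signal only at the edge of detection. RNNICER3_I, an internal sequence named for rat, was read on the sense strand only: 0.753 and 0.113 in DKO, 0.0241 and 0 in Trp53 KO, 0.0147 and 0 in Tdg KO, and 0 and 0.0465 in WT. In KP it was 0.0773, 0.223 and 0.0332 in Tdg KO and 0.0955 and 0.167 in WT. DKO library 1 is its highest library and is the one with the highest 7SL signal in B16; the part of 7SL in this was not tested. Elements named for taxa other than Mus held 5.16% and 3.34% of the members' summed signal in DKO, 0.982% and 0.586% in Trp53 KO, 1.54% and 1.79% in Tdg KO, and 2.15% and 2.75% in WT.

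The 8 elements with signal in 1 of the 26 columns are ERV1A-CPo_I, NICER19A_I, NICER19B-int, RLTR1_Rat1, RLTR5_MM, RNLTR12, RNLTR7_I and RodERV21. RMER2B_Rn antisense was 9.12 and 6.05 in DKO, 1.65 and 0.529 in Trp53 KO, 0 and 1.70 in Tdg KO, and 1.72 and 2.25 in WT, with DKO above all other B16 libraries as deposited. Its difference between DKO and Trp53 KO did not pass. These elements were named after their values were seen.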
